A study of Hydra viridissima with 2 samples.

Results

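Among the gene models of the green hydra, 242 of 34573 stand beside a look-alike: the next model along the scaffold lies on the same strand, has the same exon number of at least 3, a coding length within 5% (of the longer model) and a gap of more than 500 bp in between. Such neighbours are candidate tandem duplicates. The rule used coordinates alone and no expression value. It gave 128 pairs, which chained into 114 runs: 101 runs of 2 copies, 12 of 3 copies and 1 of 4 copies. The runs lay on 20 of the 105 scaffolds, 56 on the plus and 58 on the minus strand. Members had 3 to 39 exons (median 6) and coding lengths of 216 to 10131 nt (median 1474.5). The gaps ran from 548 bp to 652157 bp, with a median of 5550 bp. In what follows, the upstream copy is the one met first in the direction of transcription.

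The study set green, alga-bearing polyps (symbiotic) against polyps lacking the alga (aposymbiotic), both of Hydra viridissima clone 2, with 1 library of each and RNA from about 200 pooled animals per library. Both cultures were kept at 24 °C and fed brine shrimp, and RNA depleted of ribosomal RNA was sequenced in read pairs. The libraries held 6905650 symbiotic and 5533508 aposymbiotic read pairs counted on gene models, and members took 1.5% of the symbiotic total and 1.46% of the aposymbiotic one. With 1 library per state and 1 clone there was no test and no replicate check, and all intervals are at 95%. Those of counts, folds and ratios cover counting error only, while those of shares and medians cover the number of exons, models or pairs behind them and not the spread between animals. The labels do not say how the aposymbiotic culture was made.

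Tandem duplication copies a gene into the place beside it. Copies start with the same exons and regulatory sequence and may then diverge in sequence, in level or in the conditions under which they are expressed. In green hydra, a freshwater cnidarian polyp, the algae live inside the epithelial cells that line the gut. Reads from near-identical copies align to several places, and the counting command named no option that admits them, so levels of such copies are uncertain. The models carry no gene names in the table, so members are given by position (build not given in the sources used here) and no function, cell type marker or sequence is attached to them.

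The copies resembled each other exon by exon, which the rule did not ask for, although equal exon numbers and close total lengths restrict how far single exons can differ. Of 1109 exons compared in order along the transcript, 804 had the same length in both copies, 72.5% (Clopper-Pearson interval over exons 69.8 to 75.1). Intervals over exons treat exons as independent, though exons are grouped in pairs of models, and are likely too narrow. Among 215 other neighbouring same-strand pairs with equal exon numbers and gaps above 500 bp, which missed the 5% length rule alone, 136 of 1404 exons were identical, 9.69% (8.19 to 11.4). These pairs were set apart by their unequal total length, which by itself keeps them from matching in every exon. The internal exons of look-alikes were identical in 79.6% of comparisons, their first exons in 51.6% and their last exons in 46.1%. Each pair gives 1 first and 1 last exon, while pairs with more exons give more of the 853 internal ones. Positions were not compared within pairs. Where exon lengths differed, the difference was a multiple of 3 in 265 of 305 exons of look-alikes, 86.9%, against 40.9% in the other pairs. Since nearly all coding lengths are multiples of 3, a single unequal exon in a pair must differ by a multiple of 3, so part of this contrast is fixed by arithmetic. Introns were looser: 15.3% had the same length in both copies, and the median fold difference in intron length was 1.58, against 0.589% and 2.43 in the other pairs.

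**Figure D1:**
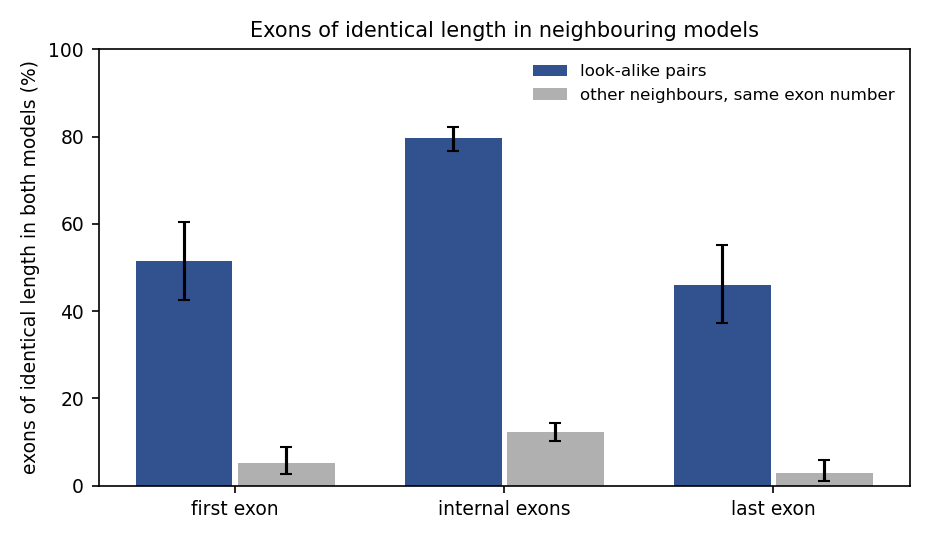
Share of exons (%) with the same length in both models of a pair, by position in the transcript, for look-alike pairs and for other neighbouring pairs with equal exon numbers; bars start at 0 and error bars are 95% Clopper-Pearson intervals over exons. Internal exons of look-alikes were identical in 79.6% of comparisons, first exons in 51.6% and last exons in 46.1%, against 12.2%, 5.12% and 2.79% in the other pairs. Pairs with more exons give more of the internal exons.

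By exon lengths, 33 of the 128 pairs were identical in every exon, 97 in at least 50% of exons, and 12 in none. Long exon series were among them: 33 pairs had 10 or more exons, and 30 of these matched in at least 50% of them. One case is a pair on scaffold 7 (1117803 to 1125271 and 1127719 to 1137532, minus strand), where both copies have 11 exons of 150, 74, 46, 242, 163, 97, 76, 126, 168, 58 and 123 nt. A pair on scaffold 6 (15456032 to 15461647 and 15479680 to 15495816, minus strand) has the same 10 exons in both copies, 2067 nt in all. By contrast, a 7-exon pair on scaffold 1 (25727718 to 25732642 and 25737452 to 25750265), with 1035 and 1020 nt, shares no exon length and looks alike in number and total length only.

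Some runs belonged to larger neighbourhoods of similar models. Of the 242 members, 51 (21.1%) shared 3 exon lengths in a row with a further model up to 5 places away and outside the run, against 4.49% of the other 10712 models of 3 or more exons, counted with any model up to 5 places away. There were 32 such further models beside 28 of the 114 runs, 9 of them on the opposite strand. On scaffold 4, a pair of 17-exon runs stood close together, with copies starting at 990715, 1012229, 1048602 and 1061284, and a 15-exon relative followed at 1077115. Their levels per length differed widely. In the symbiotic library the copies stood at 59.3, 9.54, 18.9 and 5.91 CPM per kb (counts scaled to library size as CPM and divided by kb of coding length) in that order, and in the aposymbiotic library at 58.1, 7.74, 21.6 and 5.93. The order was the same in both libraries. Beside the largest models, a 38-exon pair on scaffold 7, lay a further 38-exon model on the opposite strand (18013135 to 18046405, 10104 nt), identical to its closest relative in 24 exons. It had 18.1 CPM per kb in symbiotic polyps and 13.9 in aposymbiotic polyps, well below the pair itself.

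Several whole runs occurred again on another scaffold. For 5 pairs of runs, 20 members in all, every copy had a counterpart with exactly the same exon lengths in the same order. Only run series found in exactly 1 such pair, with at least 1 symbiotic count, entered. This left out runs of 486 nt models on scaffolds 2 and 69 and of 3234 nt models on scaffolds 1, 2 and 31. The exon series of these models also recur on other scaffolds. In 4 of the 5, a run on scaffold 15 recurred on scaffold 10 or 14, and in the fifth a run on scaffold 1 recurred on scaffold 20. The most counted is a 5-exon pair of 264, 238, 185, 975 and 192 nt. On scaffold 10 (minus strand) the upstream copy at 5398190 had 955 symbiotic and 827 aposymbiotic counts, and the downstream copy at 5386546 had 426 and 412. On scaffold 15 (plus strand) the upstream copy at 8668872 had 887 symbiotic and 864 aposymbiotic counts, and the downstream copy at 8680651 had 412 and 397. All 4 models share 1 exon series, and the upstream copy was the higher by about the same factor at both places: 2.24-fold on scaffold 10 and 2.15-fold on scaffold 15 in the symbiotic library, 2.01-fold and 2.18-fold in the aposymbiotic library.

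Among these 5 pairs of runs, counterparts on different scaffolds lay closer in level, by their medians, than the copies standing side by side. The comparison is uneven, as counterparts were chosen to match in every exon length. Neighbouring copies did so only in the 5-exon pair on scaffolds 10 and 15, and matched in 0%, 40% or 75% of exons in the rest. The medians therefore cannot tell place from exon match. Over the 10 pairs of counterparts, the fold difference of counts summed over both libraries ranged from 1.02 to 1.49 with a median of 1.12. Within single libraries it reached 1.44 (symbiotic) and 1.72 (aposymbiotic). Between neighbouring copies within the same runs the median was 2.46-fold for the runs on scaffolds 1, 10 and 14, and 2.16-fold for those on scaffolds 15 and 20. Which copy was the higher was the same at both places in 5 of 5. A 33-exon pair on scaffolds 14 and 15 was not among them, as its downstream models differ in length. Its upstream models share every exon length but had 415 symbiotic and 370 aposymbiotic counts on scaffold 14, and 715 and 601 on scaffold 15. Its downstream models had 443 and 367 on scaffold 14, near the upstream copy, and 476 and 308 on scaffold 15. In an 11-exon pair among the 5, the neighbouring copies share no exon length with each other. On scaffold 1 the upstream copy (1069380 to 1074876) had 103 symbiotic and 96 aposymbiotic counts and the downstream copy (1077260 to 1083165) 803 and 715. Their counterparts on scaffold 20 (from 800814 and 808666) had 141 and 95, and 709 and 665.

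The recurrence went beyond these runs. Of all 10954 models of 3 or more exons, 916 (8.36%) had an exon series found exactly once on each of 2 scaffolds. Scaffolds 10 and 15 shared 103 such series, all on opposite strands, and scaffolds 14 and 15 shared 98, all on the same strand. Among the 357 such series with at least 50 counts in all, the median fold difference between the places was 1.18. Since runs on such scaffolds share their exon series, results were also computed without the second run of each (232 members, 109 runs).

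**Figure D2:**
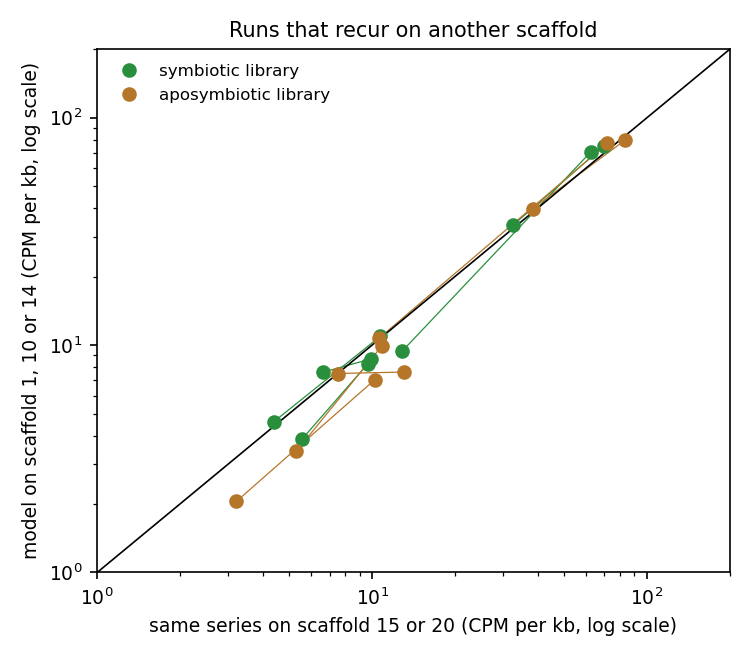
Level per length (CPM per kb, log scales) of the 10 models in runs that recur on another scaffold, with the counterpart on scaffold 15 or 20 on the x axis, for the symbiotic and the aposymbiotic library; thin lines join the copies of a run and the diagonal marks equality. Most points lie near the diagonal. The median fold difference was 1.12 for counts summed over both libraries, and the largest in 1 library was 1.72 (aposymbiotic).

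Most members had counts, and those without any count were mainly exact structural repeats. Both libraries lacked any count for 15 members, 6.2% (Clopper-Pearson interval 3.51 to 10.0), against 2.40% (2.12 to 2.71) of other models of 3 or more exons. Over all 34573 models, whose median exon number is 1, the share without any count was higher, 28.4%. Of the 15, 14 were in pairs identical in every exon, where 14 of 64 models (21.9%, interval 12.5 to 34) had none. They included 4-exon models of 3234 nt on scaffolds 1, 2 and 31, whose exon series recurs at 9 places outside each run, and 3-exon models of 486 nt on scaffolds 2 and 69. The only run of 4 copies was of this kind. It lies on scaffold 10 (minus strand, 1051383 to 1098349) with starts 14697, 14691 and 14699 bp apart, and each copy has 5 exons of 156, 57, 169, 131 and 84 nt, 597 nt in all. In the order of transcription the copies had 0, 1, 0 and 5 symbiotic counts and 0, 1, 0 and 4 aposymbiotic counts. A count of 0 does not show that such a copy is silent, since it is not known how many of its reads align to several places.

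Read from the highest sums, the runs held some abundant transcripts. The 38-exon pair on scaffold 7 (minus strand, 10131 and 10128 nt) ranked first and matched in 26 exons. Its upstream copy (17940863 to 17980009) had 7582 symbiotic and 5578 aposymbiotic counts, and its downstream copy (17903511 to 17937205) 7478 and 5034. Per kb these are 109 and 108 CPM in symbiotic polyps and 98.6 and 89.0 in aposymbiotic polyps, so the copies stood 1.01-fold apart in the symbiotic and 1.11-fold in the aposymbiotic polyps. A 3-copy run of 8 exons on scaffold 6 (plus strand, starts at 16718699, 16726194 and 16732420) was uneven. Its copies had 5088, 1295 and 1887 symbiotic counts and 3839, 924 and 1603 aposymbiotic counts, with the copy at 16718699 standing 3.88-fold above the second in symbiotic polyps and 4.10-fold in aposymbiotic polyps. Its exons of 338, 750 and 193 nt are common to all 3 copies, while the first exons measure 85, 61 and 67 nt.

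The highest level per length, as the mean of both libraries, was in a 6-exon pair on scaffold 9 (plus strand). The upstream copy (4657965 to 4660151) had 533 CPM per kb in symbiotic polyps and 452 in aposymbiotic polyps, and the downstream copy (4670972 to 4672696) had 458 and 421. In the aposymbiotic library alone, a 3-exon copy on scaffold 11 (10110856 to 10111645, plus strand, 285 nt) stood higher, at 381 CPM per kb in symbiotic polyps and 497 in aposymbiotic polyps. The scaffold 9 copies share the 4 inner exons of 227, 253, 120 and 229 nt and differ in the first and last. A 33-exon pair on scaffold 5 (minus strand) was uneven, at 23.0 symbiotic and 28.9 aposymbiotic CPM per kb upstream (4305767 to 4329159) and 69.2 and 65.4 downstream (4270169 to 4298286). Of the remaining 6 of the 10 runs with most counts, one on scaffold 13 and one on scaffold 1 are described with the ratios, and one on scaffold 12 with the unequal pairs. The other 3 had copies 2.13-fold (13 exons, scaffold 8, from 10148358), 1.84-fold (6 exons, scaffold 8, from 16365591) and 23.5-fold (7 exons, scaffold 1, from 25727718) apart in the symbiotic library. In the aposymbiotic library these were 1.99-fold, 1.5-fold and 28.6-fold.

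**Figure D3:**
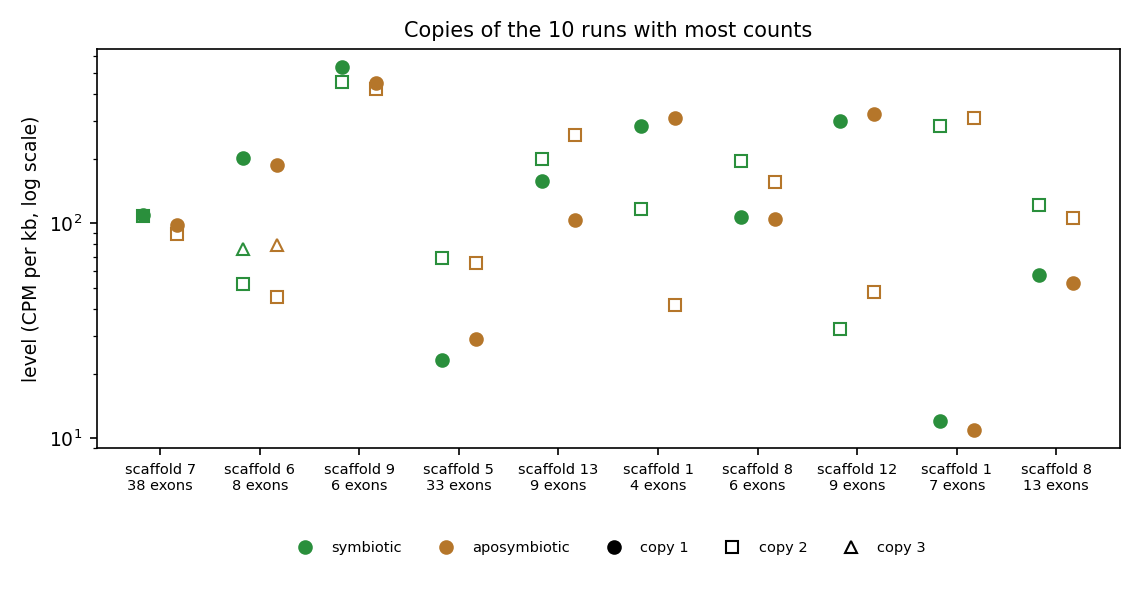
Level (CPM per kb, log scale) of each copy in the 10 runs with most counts, symbiotic in green and aposymbiotic in brown; the symbol gives the copy's place in the direction of transcription. Copies are nearly level on scaffold 7 (109 and 108 CPM per kb in the symbiotic library) and far apart in the 7-exon pair on scaffold 1 (23.5-fold).

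Across pairs, neighbouring copies differed about as much in level as other neighbours did. In 117 pairs at least 1 copy reached a mean of 1 CPM, and 11 pairs did not. All 11 were identical in every exon, a class of 33 pairs of which 22 entered. A copy with 0 counts was set to a floor of 3 counts per library, so its fold depends on that floor and is not an interval bound. The higher copy exceeded the lower by a median of 2.12-fold (order-statistic interval over pairs 1.78 to 2.59), against 2.34-fold (2.25 to 2.47) in 2837 other neighbouring same-strand pairs of models with 3 or more exons. At least 4-fold in both libraries, with both counting intervals excluding equality, were 29 of the 117 look-alike pairs, 24.8% (Clopper-Pearson interval 17.3 to 33.6). Among the other pairs 28.3% met this rule, so the share is near the background. Copies that matched in at least 50% of exons differed by a median of 2.03-fold (1.62 to 2.43, 86 pairs) and those identical in every exon by 1.39-fold (1.19 to 2.49, 22 pairs). Pairs with fewer matching exons differed by 3.53-fold (1.65 to 5.74, 31 pairs). These intervals overlap and the differences between the classes were not tested.

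As a further description of levels, Pearson's r of log2 CPM per kb was 0.575 across 110 look-alike pairs with both copies at a mean of 1 CPM or more, and 0.159 across 2661 other pairs. Across 176 other pairs with equal exon numbers it was 0.233. Look-alikes with at least 50% of exons identical had 0.630 (81 pairs), and those with fewer 0.504 (29 pairs). These are descriptions across pairs from the same libraries, runs of 3 enter as 2 pairs, and pairs are not replicates. The upstream copy was the higher in 62 of 117 pairs, 53.0%, against 50.4% among other neighbours. In 9 of the 117 the higher copy changed between the libraries, against 176 of 2837 pairs of other neighbours.

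**Figure D4:**
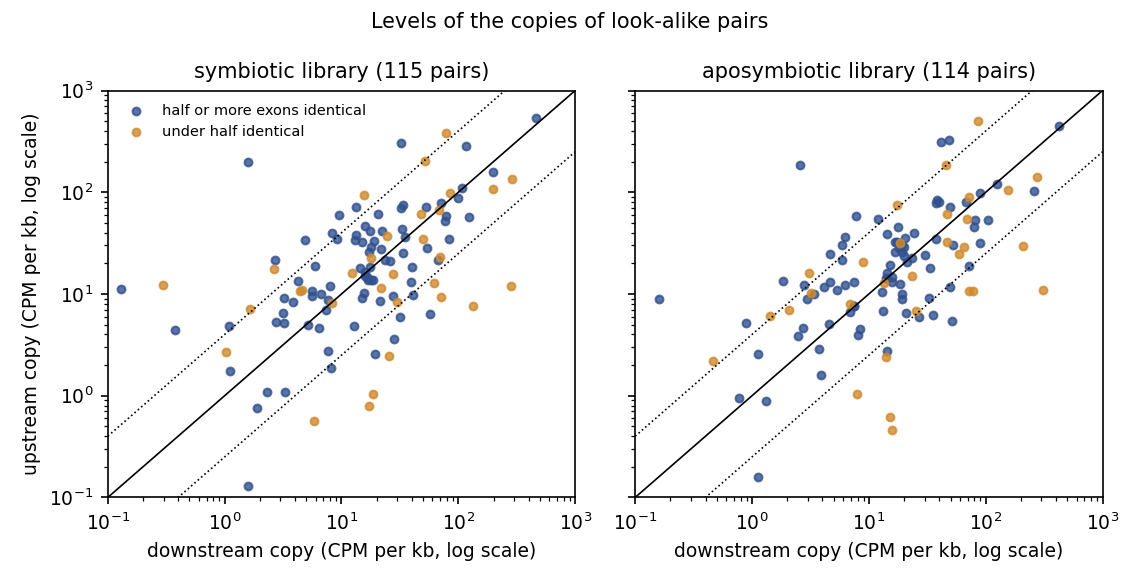
Level of the upstream against the downstream copy (CPM per kb, log scales) for symbiotic polyps (115 pairs) and aposymbiotic polyps (114 pairs; pairs with a copy at 0 are not drawn), colored by the share of identical exons; the solid line marks equality and dotted lines a 4-fold difference. Points scatter widely around equality, and 29 of 117 pairs lie at least 4-fold apart in both libraries.

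The pairs furthest apart in level, ranked by the interval bound nearest to equality, mostly had 1 copy with few counts. First was a 3-exon pair on scaffold 2 (plus strand). The upstream copy (21652656 to 21655818, 579 nt) had 782 symbiotic and 594 aposymbiotic counts, and the downstream copy (21658912 to 21660206, 552 nt) 6 and 8. Per length this is 124-fold (56.8 to 340) in symbiotic polyps and 70.8-fold (35.7 to 165) in aposymbiotic polyps. The exons of 97 and 244 nt are the same in both copies, and the last measures 238 and 211 nt. The 7-exon pair on scaffold 1 that shares no exon length came second, at 23.5-fold (18.9 to 29.6) in symbiotic polyps and 28.6-fold (22.2 to 37.4) in aposymbiotic polyps. Next was a 5-exon pair on scaffold 1 (minus strand), whose downstream copy (34366418 to 34370872) had 226 symbiotic and 165 aposymbiotic counts, and whose upstream copy (34378227 to 34380871) had 11 and 7. The fold was 21.6 (11.8 to 43.9) in symbiotic polyps and 24.8 (11.8 to 62.6) in aposymbiotic polyps.

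After these came runs with a weakly counted copy. In a 3-copy run on scaffold 1 (plus strand, 4722531 to 4738791), the last copy stood above the middle one by 17.9-fold (9.81 to 36.5) in symbiotic polyps and 34.6-fold (13.2 to 129) in aposymbiotic polyps. In a 3-copy, 7-exon run on scaffold 14 (8014760 to 8038041) the copies had 85, 1 and 12 symbiotic and 56, 1 and 7 aposymbiotic counts in the order of transcription. The middle copy, with 1 count in each library, shares 6 of 7 exon lengths with the last. A 3-exon pair on scaffold 6 (6171237 to 6172328 and 6178141 to 6178887) had 41 symbiotic counts upstream and 1 downstream, and 32 and 0 aposymbiotic counts. The fold was 41.0 (6.96 to 1658) in symbiotic polyps. Among aposymbiotic counts the upstream copy stood 10.7-fold higher with the downstream copy set to its floor of 3 counts. Over all 12 runs of 3, the highest copy exceeded the lowest by 1.32-fold to 85.5-fold in symbiotic polyps and 1.51-fold to 56.3-fold in aposymbiotic polyps.

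Pairs with the same or nearly the same exons ranged from equal to unequal levels. The 11-exon pair on scaffold 7 with identical exons had 522 symbiotic and 380 aposymbiotic counts in its downstream copy and 58 and 40 in its upstream copy. The difference was 9.0-fold (6.85 to 12) in symbiotic polyps and 9.50-fold (6.85 to 13.5) in aposymbiotic polyps. A 9-exon pair on scaffold 12 (minus strand), identical but for 1 exon of 159 and 144 nt, had 1893 symbiotic and 1663 aposymbiotic counts upstream (7667730 to 7669750) and 200 and 243 downstream (7661544 to 7664117). This is 9.31-fold (8.04 to 10.8) in symbiotic polyps and 6.73-fold (5.88 to 7.73) in aposymbiotic polyps. On the other side, a 4-exon pair on scaffold 5 (minus strand, exons of 79, 249, 543 and 122 nt) was near equality, with 679 symbiotic and 687 aposymbiotic counts in the downstream copy (16320582 to 16325667) and 602 and 675 in the upstream copy (16331841 to 16338744). A 16-exon pair on scaffold 11 (plus strand, 3156 nt each) had 360 symbiotic and 276 aposymbiotic counts in the downstream copy (13023000 to 13043578) and 315 and 259 in the upstream copy (13004951 to 13013382). The 10-exon pair on scaffold 6 had 364 symbiotic and 301 aposymbiotic counts upstream and 242 and 192 downstream, and a 7-exon pair on scaffold 10 (minus strand, 1731 nt each) had 330 and 230 upstream (from 9034740) and 258 and 195 downstream (from 9021151).

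Most members had similar levels in symbiotic and aposymbiotic polyps. Of the 242, 216 reached a mean of 1 CPM. The symbiotic over aposymbiotic ratio had a median of 0.053 on the log2 scale (order-statistic interval 0.024 to 0.10), against 0.013 over all 16162 models that entered, and 84.3% lay within 0.5 of equality, against 89.9% of other models of 3 or more exons and 82.2% of all. At least 2-fold higher in the symbiotic library, with an interval excluding equality, were 4 members, 1.85%, where 0.947% of all models and 0.589% of other models of 3 or more exons were. At least 2-fold lower were 5 members, 2.31%, where 1.42% of all models and 0.762% of other models of 3 or more exons were. Either way, 2.36% of all models were called. These shares rest on few genes, mostly of low counts, and nothing particular to look-alikes is read from them. In whole polyps, a lower level can come from fewer cells of a type or from less RNA per cell, which cannot be told apart.

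Ranked by the interval bound nearest to equality, the first member by ratio was model cHydvir-v1B3C1_g1489 on scaffold 1 (14273738 to 14275209, plus strand), the downstream copy of a 4-exon pair. It had 877 symbiotic and 255 aposymbiotic counts, a ratio of 1.49 (1.29 to 1.70) in log2 units. Second was cHydvir-v1B3C1_g25335 on scaffold 5 (10486971 to 10497219, minus strand, 7 exons), with 276 symbiotic and 123 aposymbiotic counts and a ratio, as log2, of 0.87 (0.56 to 1.19), short of 2-fold. Its upstream partner (10517269 to 10525796) had 26 and 21 counts, a ratio near equality at 0.02 (-0.87 to 0.92). In the other direction, cHydvir-v1B3C1_g14058 on scaffold 16 (5952022 to 5955777, minus strand, 7 exons) had 4 symbiotic and 24 aposymbiotic counts, a log2 ratio of -2.72 (-4.86 to -1.34). Its upstream partner (5968153 to 5988126) had 47 and 106 counts, hence a log2 ratio of -1.45 (-1.99 to -0.96). This was the only pair with both copies called in the same direction, and a further 7-exon relative at 6009998 had 82 symbiotic and 120 aposymbiotic counts. Second was cHydvir-v1B3C1_g21346 on scaffold 4 (2466024 to 2467009, minus strand), with 24 symbiotic and 77 aposymbiotic counts, hence -1.95 (-2.70 to -1.30).

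The other ranked members were less extreme. A 9-exon copy on scaffold 13 (from 3190004) stood at a log2 ratio of 0.60 (0.48 to 0.73) and a 4-exon copy on scaffold 7 (from 2923538) at 0.69 (0.38 to 1.01). A 5-exon copy on scaffold 6 (from 2602601) stood at -1.26 (-1.69 to -0.85). The remaining calls were a 3-exon copy on scaffold 1 (from 3106047, 27 symbiotic and 9 aposymbiotic counts), a 5-exon copy on scaffold 14 (from 2609647, 44 and 16) and both copies of a 3-exon pair on scaffold 6, given below; these were named after their values were seen, apart from that pair. The counterpart of the scaffold 14 copy on scaffold 15 (from 3768934) had 42 symbiotic and 25 aposymbiotic counts, hence a log2 ratio of 0.45 (-0.29 to 1.23), so the call was not met there.

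Within pairs, the ratios of the copies can be set against each other with no library scaling, as the ratio of 2 ratios with an exact conditional interval. In 110 pairs both copies reached a mean of 1 CPM. The absolute difference in log2 ratio had a median of 0.28 (order-statistic interval 0.23 to 0.34), against 0.22 (0.21 to 0.23) in the other neighbouring pairs. In 85 of the 110 the interval of the difference included 0. In the other 25, 22.7%, it excluded 0, against 16.9% of the other neighbouring pairs. At least 2-fold apart with an interval excluding equality were 4 pairs, 3.64%, where 1.73% of the other pairs were. Among the 176 other pairs with equal exon numbers the share was 2.27%, and the look-alike share rests on 4 pairs. Counting intervals do not cover all of the spread among abundant genes. Among models of 3000 or more counts log2 ratios had a robust SD across models of 0.154, which is 3.78 times the SD expected from counting. With 1 library per state, this SD cannot separate differences between the states from other spread between libraries. Small differences between well counted copies, such as -0.13 (-0.20 to -0.06) in the 38-exon pair, are no larger than that SD across models.

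Ranked by the interval bound nearest to 0, first was the 4-exon pair on scaffold 1, whose copies have the same exons of 369, 228, 167 and 334 nt and stand 2582 bp apart. The upstream copy (14269680 to 14271155) had 2137 symbiotic and 1909 aposymbiotic counts, a log2 ratio of -0.13 (-0.22 to -0.04). The downstream copy stood at 1.49, as given above. The difference, upstream minus downstream, was -1.62 (-1.85 to -1.40), and the downstream copy alone met the 2-fold rule. The upstream copy exceeded the downstream one by 2.44-fold (2.25 to 2.64) in symbiotic polyps and 7.49-fold (6.57 to 8.57) in aposymbiotic polyps. Summed over both, the log2 ratio was 0.19 (0.11 to 0.27). A further model with the same exon series, on scaffold 11, is outside the run.

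In the other pairs that differed in ratio, the copies moved in opposite directions or by unequal amounts. A 5-exon pair on scaffold 6 (plus strand, 450 and 432 nt) had 115 symbiotic and 62 aposymbiotic counts upstream (2591933 to 2593627) and 73 and 143 downstream (2602601 to 2604590). The log2 ratios were 0.60 (0.14 to 1.07) and -1.26 (-1.69 to -0.85), a difference of 1.86 (1.23 to 2.50), and the higher copy was a different one in each library. A 3-exon pair on scaffold 6 (minus strand) had 14 symbiotic and 27 aposymbiotic counts upstream (6758158 to 6761119) and 30 and 12 downstream (6747463 to 6752002), a difference of -2.27 (-3.77 to -0.80) from low counts. It was the only pair with copies called in opposite directions, and the higher of these calls, at a log2 ratio of 1.0, was met by a small margin. In a 3-exon pair on scaffold 4 (minus strand, 462 nt each, no exon length shared) both copies were lower in symbiotic polyps, with log2 ratios of -1.95 (-2.70 to -1.30) upstream and -0.65 (-0.84 to -0.46) downstream and a difference of -1.32 (-2.07 to -0.62).

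Just short of 2-fold was a well counted 9-exon pair on scaffold 13 (plus strand). Its upstream copy (3190004 to 3201890) had 1434 symbiotic and 771 aposymbiotic counts, and its downstream copy (3208196 to 3212287) 1851 and 1959. The log2 ratios of 0.60 (0.48 to 0.73) and -0.37 (-0.47 to -0.28) differed by 0.98 (0.82 to 1.14), while the sum of both copies stood at -0.03 (-0.10 to 0.05). The copies share 7 of 9 exon lengths. A 6-exon pair on scaffold 7 (minus strand) differed by 0.97 (0.57 to 1.37), with 398 symbiotic and 246 aposymbiotic counts upstream (1212881 to 1218990) and 149 and 180 downstream (1188865 to 1191692). Neither pair met the 2-fold rule for a difference.

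**Figure D5:**
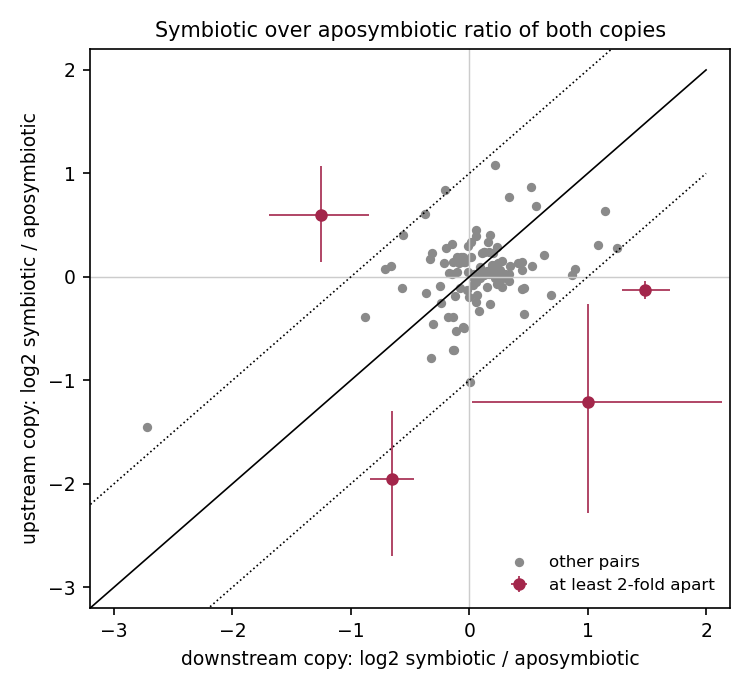
Log2 ratio of symbiotic over aposymbiotic level in the upstream against the downstream copy for 110 pairs; the solid line marks equal ratios, dotted lines a 2-fold difference, and red points the 4 pairs at least 2-fold apart whose interval excludes equality, with 95% counting intervals. Most pairs lie near the origin, and the red point on the right with short bars is the 4-exon pair on scaffold 1 (1.49 downstream and -0.13 upstream).

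At the edges of the rule, exon matches were as follows. The pairs with the largest accepted length differences, 4.80% and 4.87%, matched in 2 of 4 and 1 of 5 exons. The closest refused pairs, at 5.35% on scaffold 5 and 5.54% on scaffold 17, matched in 2 of 3 and 5 of 6. The smallest accepted gaps, 548 bp and 565 bp, belonged to pairs matching in 16 of 19 and 4 of 5 exons. The widest refused gaps, 475 bp and 420 bp, belonged to pairs matching in 4 of 6 and 2 of 6.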

How the data were processed

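Total RNA of whole polyps was sequenced in read pairs, 1 library per state. Per the labels' protocols ribosomal RNA was depleted enzymatically, while the molecule field says polyA RNA. The authors deposited read-pair counts per gene model. Per the file headers, featureCounts made them, with no strand setting and no option for reads with several alignments, so an antisense gene's reads cannot be told apart. The submitters' processing notes name Subread 2.1.1, fastp 1.1.0 and STAR 2.7.11b. Lengths are coding lengths (98.4% are multiples of 3). The spans of 2 members overlap another model.

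Exon intervals were merged per model. CPM used TMM factors (0.991 symbiotic, 1.01 aposymbiotic; edgeR 4.0.16 in R 4.3.3), and log2 ratios a prior count of 0.5. All else used Python 3.11.15 with scipy 1.17.1, pandas 2.3.3 and numpy 2.4.6. Intervals are exact, at 95%. With 1 library per state no test across replicates was run. The procedure was tested on simulated counts that held counting error alone, so that test cannot show how the intervals cover spread between animals or libraries. Alternatives changed the rule, filters, scaling and prior count. Members, comparisons and lists were chosen with earlier results of these data known. Named were the run of 4, the 10 runs with most counts, the 6 pairs furthest apart in level and the 6 in ratio by interval bound, the 8 most counted pairs identical in every exon, and the 4 highest and 4 lowest ratios.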

Additional observations from a re-analysis of the deposited data

How the results depend on the processing

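No paired analysis was possible because each state has 1 library. Leaving out the second run of each recurring pair was chosen after seeing the data; it moved no count it was run on by more than 1.5 times. With a length tolerance of 1% there were 143 members in 68 runs, and with 5 or more exons 156 in 73. Within 3 nt, 80.3% of exons matched. The pairs at least 4-fold apart in level were 16 of 86 exon-matched pairs and 13 of 64 at the 1% tolerance, against 29 of 117; the cause was not tested. At a mean of at least 10 CPM, 1 of 165 members was at least 2-fold higher and 2 were lower. Of all 9483 models at that mean, 0.137% were higher and 0.538% lower. There 2 of 75 pairs differed at least 2-fold in ratio. With a prior count of 5, 1 of 216 members was higher, where 0.71% of all models were. Among exon-matched pairs 3 of 160 members were lower, where 1.42% of all models were. Of these pairs 2 of 81 differed in ratio, and with no interval required 7 of all 110 pairs did. Other neighbouring pairs stood at 1.73% under the main rule. Their shares at a mean of at least 10 CPM or with no interval required were not computed, so those counts have no background. The other 55 of the 69 alternative values stayed within 1.5 times the count or within the interval given. Of the 36 alternative ratios of the 9 called members none changed sign, and 6 fell short of 2-fold or of their interval; the 3-exon copy on scaffold 6 (from 6747463) stood at 0.98 with total counts alone, 0.99 with the upper quartile and 0.81 with a prior count of 5. That prior count also brought 3 low-count copies to 0.98 (scaffold 1, from 3106047), 0.98 (scaffold 14, from 2609647) and -0.98 (scaffold 6, from 6758158). Low counts limit single copies: at 20 to 50 counts the robust SD of log2 ratios across models was 0.576.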

Other observations

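A 33-exon pair on scaffold 14 (plus strand, 466257 to 509307 and 512983 to 555509) has a similar pair on scaffold 15 (572333 to 614826 and 618514 to 657612). The upstream models share every exon length (8721 nt), whereas the downstream models measure 8760 and 8763 nt. The upstream model had 415 symbiotic and 370 aposymbiotic counts on scaffold 14, and 715 and 601 on scaffold 15. The downstream model had 443 and 367 on scaffold 14, and 476 and 308 on scaffold 15. In each pair 28 of 33 exon lengths were the same in both copies. In the symbiotic library the downstream copy was 1.06-fold (0.927 to 1.22) the level of the upstream copy on scaffold 14, an interval that includes equality, and the upstream copy was 1.51-fold (1.34 to 1.70) the downstream one on scaffold 15. In the aposymbiotic library the scaffold 14 order turned, with the downstream copy at 0.987-fold (0.852 to 1.14) the upstream one, again including equality, and the scaffold 15 fold was 1.96 (1.71 to 2.26).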
